A study of Mus musculus with 38 samples.

Results

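Clone sAg1 is a mouse CD8 T cell clone whose phenotype label is CD8IL13+, meaning a cytotoxic T cell line of 1 clone that is recorded as making interleukin 13. The data described here are its response to anti-CD3: 4 arrays of the clone activated for 14 h on plates coated with the antibody 145-2c11 (0.5 ug/ml) against 3 arrays of the same clone in the dormant, resting state. These 7 arrays were chosen by their titles, out of 38 in the series. The other 31 arrays cover a further CD8IL13+ clone (sAg3), 2 CD8IL13- clones of Tc1 type (8uvmo-2 and 8uvmo-3) and an alloreactive CD8 clone (CD8bm1), each in the same 2 states, with 3 arrays for dormant sAg3 and 4 for every other group. All cells were grown in RPMI 1640 with serum, and 100 ng of total RNA was labelled for each array. No source used here gives the mouse strain or what kept the clones alive. The labels do not tell whether arrays of 1 group had their own cultures, and the p-values then cover only the variation among these arrays, possibly a technical one.

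A T cell recognises antigen through its receptor, and the CD3 chains carry the signal into the cell. An antibody that holds CD3 on a surface starts the same cascade without antigen: calcium acts through NFAT, the MAP kinases through AP-1 and the Egr factors, and protein kinase C through NF-kB. Within hours a CD8 T cell turns on cytokine and chemokine genes and then the brakes on these pathways, and it turns off many genes that keep a resting cell quiet. Most CD8 T cells make interferon gamma, and a smaller class also makes the type 2 cytokines that are better known from CD4 helper cells.

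A level in what follows is the log2 value of a probe set minus the median of all named probe sets on the same array, so that 0 is the array's median and a level well below 0 is a dim spot, close to what an absent RNA gives. A difference is the mean activated level minus the mean dormant level, and a difference of 1 is a doubling. Expression is said to have risen or fallen where limma's moderated test, adjusted over 23410 named probe sets by the Benjamini-Hochberg method, gave p under 0.05 and the difference was at least 1. The centring matters here, because in the deposited values the activated arrays had medians of 7.01 to 7.05 and the dormant arrays 6.62 to 6.64. That shift of 0.375 over all named probe sets was largest for dim ones, at 0.555 between values of 5 and 6, and it was -0.178 above 12.

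The 7 arrays separated by their labelled states. Pairs of dormant arrays correlated at 0.997 to 0.9974 and pairs of activated arrays at 0.9956 to 0.9981 over named probe sets, while pairs across the states correlated at 0.9577 to 0.9641. The dormant sAg1 arrays stood apart from the other dormant arrays in several ways, some of them given with the genes below. The median level of 12146 rows without a gene name lay between -0.73 and -0.57 in them, against -1.14 to -0.87 in the other dormant groups and -1.04 to -0.95 in activated sAg1. The part of this in the results below was not tested.

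T cell and CD8 genes were bright, as the label says. Cd3e, a CD3 chain, had levels of 6.37, 6.39 and 6.39 in the dormant arrays and 5.62, 5.55, 5.74 and 5.52 in the activated arrays, and Cd8b1, a CD8 chain, had 5.72, 5.73 and 5.75 in the dormant arrays and 5.92, 5.89, 5.98 and 5.66 in the activated arrays. Il13 rose, as described below. Of the markers of other cells, 15 of 17 for B cells, 18 of 21 for granulocytes and mast cells, 23 of 41 for macrophages and dendritic cells and 13 of 22 for stroma and epithelium were below the array median on all 7 arrays. Foxp3, the factor of regulatory T cells, had -0.5, -0.64 and -0.53 in the dormant arrays and -0.28, -0.32, -0.44 and -0.21 in the activated arrays. Cd4 was above the array median, with 1.69, 1.19 and 0.77 in the dormant arrays and 1.08, 0.82, 0.92 and 1.05 in the activated arrays, and did not pass the test.

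Activation moved 2421 named probe sets (10.3% of those tested), of which 537 rose (2.29%) and 1884 fell (8.05%). In RNA from a whole culture, fewer cells of a type and less RNA per cell cannot be told apart. The balance of the directions depended on the scaling of the arrays. With the deposited values 1692 rose (7.23%) and 845 fell (3.61%), out of 10.8% called. With quantile normalization 867 rose (3.7%) and 1134 fell (4.84%), out of 8.55% called. With cyclic loess 862 rose (3.68%) and 1208 fell (5.16%), out of 8.84% called. Called in the same direction under all 4 scalings were 510 that rose (2.18%) and 842 that fell (3.6%), together 5.78%. For each gene list below, the second pair of counts is this stricter one. Members are read against the shares of all probe sets, whose median difference was -0.03. The lists were chosen with earlier results of these data known, so their shares describe them and test nothing. Brighter probe sets also fell more often: of 11687 above the array median when dormant, 15.38% fell, against 8.05% of all. Of the 36 quiescence and memory genes below, 34 were above it when dormant.

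**Figure D1:**
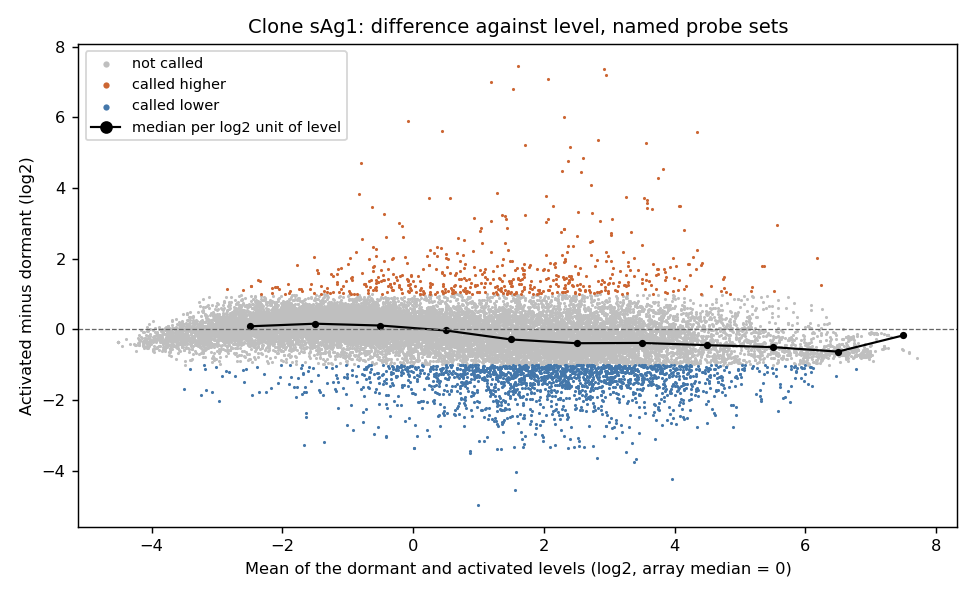
Activated minus dormant difference of each named probe set in clone sAg1 (log2) against the mean of its dormant and activated levels (log2, array median at 0), with the black line joining the median difference within each log2 unit of level. Named probe sets with several symbols are included, the largest rises lie near 7, and the line passes from slightly above 0 at dim levels to below 0 at bright ones.

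Of the 10 largest rises among probe sets with 1 gene symbol, the first 3 were secreted signals (predicted loci and receptor segments left out). Xcl1, the chemokine that draws cross-presenting dendritic cells, had levels of -0.76, -0.86 and -0.66 in the dormant arrays and 6.6, 6.65, 6.61 and 6.6 in the activated arrays, a 166-fold rise. Ccl1, the ligand of CCR8, had -0.6, -0.72 and -0.61 in the dormant arrays and 6.47, 6.47, 6.66 and 6.61 in the activated arrays. Il3, a growth factor for mast cells and basophils, had -2.23, -2.3 and -2.4 in the dormant arrays and 4.99, 4.6, 4.77 and 4.41 in the activated arrays. Each of these was a dim spot on all 3 dormant arrays and bright on all 4 activated ones, with no overlap, and the differences were 7.38 (SE 0.057, adjusted p = 6.82e-14), 7.2 (SE 0.064, adjusted p = 1.50e-13) and 7.0 (SE 0.12, adjusted p = 2.06e-11). No detection calls were used, so a fold from a dim spot is a fold of array signal and not of RNA amount.

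The remaining large rises were Olr1, a scavenger receptor for oxidised lipoprotein (6.81, SE 0.085), Tm4sf19, a membrane protein of the tetraspanin-like L6 family (6.0, SE 0.09), and Akr1c18, an enzyme that inactivates progesterone (5.61, SE 0.16). Ccl3 (5.58, SE 0.12), Inhba, the activin A subunit (5.36, SE 0.10), Rgs16 (5.29, SE 0.084) and Nr4a1 (5.21, SE 0.12) completed the 10 largest. Akr1c18 was dim when dormant, at -2.22, -2.28 and -2.58, and reached 3.3, 2.87, 3.2 and 3.64. For Olr1 the levels went from -1.87, -2.02 and -1.74 when dormant to 4.95, 5.04, 4.96 and 4.78 when activated.

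The largest falls came from other kinds of genes. Ifi206, a DNA-sensing interferon-induced gene, fell from 3.53, 3.41 and 3.49 when dormant to -1.41, -1.57, -1.07 and -1.92 when activated, a 31.3-fold drop. Hpgds, which makes prostaglandin D2, fell from 3.96, 3.78 and 3.77 when dormant to -0.63, -0.46, -0.59 and -1.17 when activated. Samhd1, the dNTP hydrolase that restricts viruses in resting cells, fell from 6.13, 6.07 and 6.06 when dormant to 1.9, 1.9, 2.05 and 1.5 when activated. All 4 activated arrays lay below all 3 dormant arrays for each. The differences were -4.97 (SE 0.16, adjusted p = 9.00e-10), -4.55 (SE 0.14, adjusted p = 9.22e-10) and -4.25 (SE 0.11, adjusted p = 3.25e-10), and the rest of the 10 largest falls were Klrb1f (-4.04), Lyz2 (-3.51), Ccr2 (-3.47), Abcg3 (-3.44), Plscr4 (-3.38), Nebl (-3.38) and Gab3 (-3.36).

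**Figure D2:**
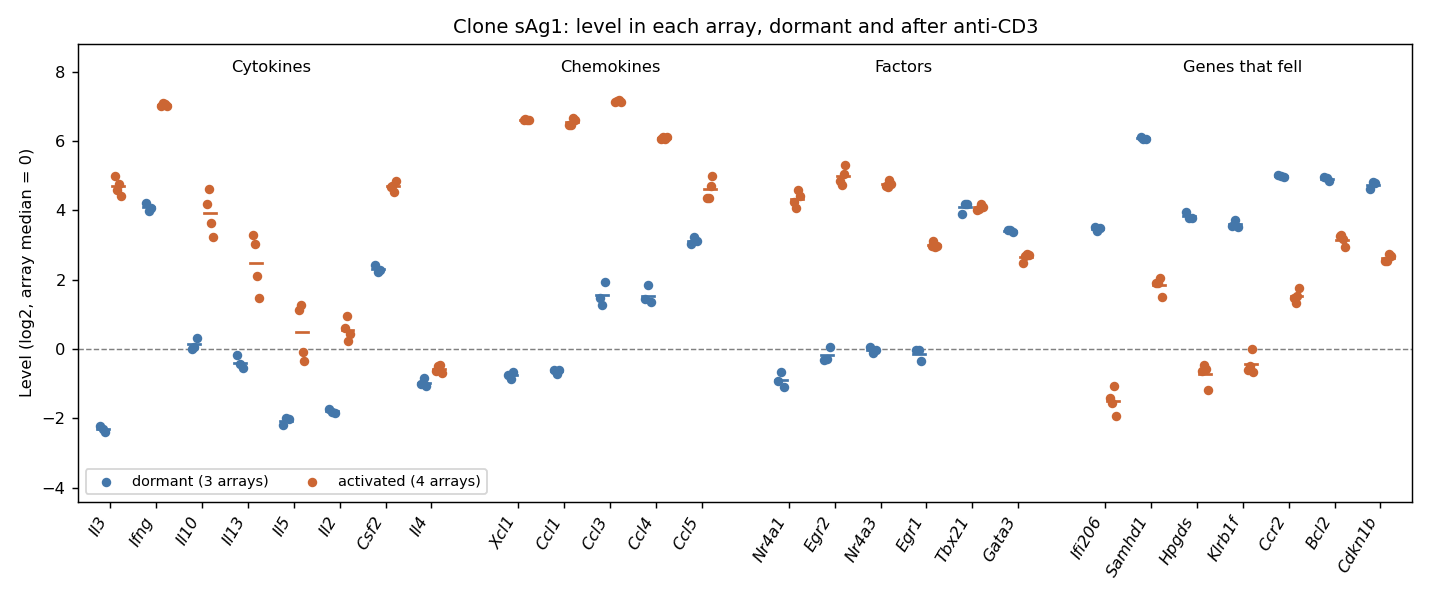
Level of 26 genes in each sAg1 array (log2, array median at 0): blue points are the 3 dormant arrays, orange points the 4 activated arrays, and short bars the group means. Il13, Il5 and Il10 spread widely among the activated arrays, while Xcl1, Ifng and Ccl3 sit close together, and Tbx21 overlaps between the states.

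Of 31 transcription factors downstream of the T cell receptor, 11 rose and 0 fell (11 and 0 under all 4 scalings), with a median difference of 0.39. Nr4a1, an orphan nuclear receptor used as a reporter of receptor signal strength, had levels of -0.91, -0.67 and -1.09 in the dormant arrays and 4.23, 4.08, 4.58 and 4.4 in the activated arrays. Egr2, a zinc finger factor induced through the MAP kinase pathway, went from -0.32, -0.28 and 0.05 when dormant to 4.84, 4.73, 5.05 and 5.32 when activated. Among their relatives were Nr4a3 at 4.77 (SE 0.073, adjusted p = 1.21e-11), Egr1 at 3.14 (SE 0.092) and Nr4a2 at 1.32 (SE 0.09). Zbtb32, a repressor also called ROG that binds GATA3, rose by 3.12 (SE 0.084), and Irf8 by 3.04 (SE 0.10). Of the AP-1 genes and their kin, Atf3 rose by 2.37, Fosb by 1.98 and Fos by 1.17. Irf4, which scales with receptor signal in effector cells, rose by 1.71 (SE 0.10). Myc, at 0.55 (SE 0.079), was under the minimum of 1, with levels of 4.51, 4.45 and 4.3 when dormant and 5.04, 5.14, 4.87 and 4.82 when activated.

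Egr2 is a target of serum response factor, which binds CArG boxes, and a promoter of it is shown for this reason. The window runs from 250 bases before to 50 bases after a RefSeq start at chr10:67537316-67537615 (GRCm38.p6, plus strand, 1 of 5 starts listed), in lower case with the match to the CArG box in capitals:
Egr2: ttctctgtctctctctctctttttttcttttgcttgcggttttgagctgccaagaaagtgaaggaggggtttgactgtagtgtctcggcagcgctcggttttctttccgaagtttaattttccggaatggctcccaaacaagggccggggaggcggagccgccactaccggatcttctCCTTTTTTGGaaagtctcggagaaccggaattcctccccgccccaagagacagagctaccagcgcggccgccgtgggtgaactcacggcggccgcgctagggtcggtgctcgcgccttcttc
Matches to this motif, searched on both strands, were present in 4 of 16 promoters of the 11 factors that rose (10 of which had a promoter in the table) and in 1.63% of 32851 mouse promoters of the same length. The whole list of factors had 4 of 32. Here and below a gene counts once for each of its starts. Egr2 thus gives 5 of the 16, and the genes that hold the 4 matches were not counted. Which factor binds there was not measured.

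NF-kB subunits and inhibitors rose in the largest share of any list. Of 16 measured, 10 rose and 1 fell (10 and 0 under all 4 scalings), and the median difference of 1.41 was the highest of the 29 gene lists. Among the subunits, Nfkb2 rose by 1.68 (SE 0.077), Rel by 1.57 (SE 0.11) and Relb by 1.49 (SE 0.08). Genes of the inhibitor family rose alongside, with Nfkbia at 1.47 (SE 0.069, adjusted p = 1.23e-08), Nfkbib at 1.72 (SE 0.065), Nfkbid at 1.45 (SE 0.084) and Nfkbiz at 1.61 (SE 0.11). Bcl3, an atypical member of the inhibitor family, had levels of 1.27, 1.3 and 1.31 in the dormant arrays and 2.92, 2.94, 3.19 and 3.17 in the activated arrays. Tnfaip3, the A20 ubiquitin editor that ends NF-kB signalling, had 2.16, 2.13 and 2.14 in the dormant arrays and 3.38, 3.44, 3.57 and 3.69 in the activated arrays. The exception, Birc2, a ubiquitin ligase of the TNF receptor complex, was -1.04 on centred values and -0.71 with cyclic loess.

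The promoter of Ccl1, the second largest rise, is printed for its match to the kappa B motif, the kind of site that NF-kB binds. It lies at chr11:82179763-82180062 (RefSeq start, GRCm38.p6, minus strand, printed 5′ to 3′ on the gene's strand), with matches to GGGA, 4 free bases and CC on either strand in capitals, where 2 matches overlap:
Ccl1: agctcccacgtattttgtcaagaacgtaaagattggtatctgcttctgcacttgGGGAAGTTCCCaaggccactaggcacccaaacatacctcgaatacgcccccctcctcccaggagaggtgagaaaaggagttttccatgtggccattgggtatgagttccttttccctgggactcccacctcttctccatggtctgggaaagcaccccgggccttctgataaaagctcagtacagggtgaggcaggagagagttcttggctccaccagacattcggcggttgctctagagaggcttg
This motif was found in 20.73% of all promoters, in 10 of 13 promoters of the NF-kB list members that rose and in 3 of 6 promoters of the chemokine ligands that rose. The whole lists held it in 13 of 20 and 9 of 16 promoters. For cytokines and growth factors it was in 2 of 9 promoters of members that rose. Their whole list held it in 10 of 27. The counts describe letters in a window of 300 bases, not bound sites.

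Genes that brake receptor signalling were among those that rose: of 18 inhibitors of MAP kinase and G protein signalling, 8 rose and 0 fell (8 and 0 under all 4 scalings), with a median difference of 0.91. Rgs16, which shuts off G proteins behind chemokine receptors, had levels of 0.8, 0.99 and 0.99 in the dormant arrays and 6.11, 6.08, 6.25 and 6.42 in the activated arrays, a 39.1-fold rise. Rgs1 rose by 2.76 (SE 0.096) and Rgs2 by 2.2 (SE 0.24), the latter with activated levels of 1.97, 1.83, 2.24 and 3.1. The MAP kinase phosphatases come next. Dusp4, a nuclear phosphatase of ERK and JNK, had levels of 0.15, -0.24 and 0.22 in the dormant arrays and 4.39, 4.45, 4.57 and 4.69 in the activated arrays. Dusp6, the cytoplasmic ERK phosphatase, had 0.6, 0.14 and 0.76 in the dormant arrays and 3.65, 3.65, 3.49 and 3.7 in the activated arrays. Dusp1 and Dusp5 rose by 1.49 (SE 0.13) and 1.31 (SE 0.096), and Dusp2 was at 0.85 (SE 0.13). Spred1, a brake on Ras, rose by 1.15 (SE 0.096), and Spry2, with the same general role, was at -0.9 (SE 0.12).

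Among 32 cytokines and growth factors, 13 rose and 3 fell (13 and 2 under all 4 scalings), with a median difference of 0.60. Il13, the cytokine the clone is labelled for, had levels of -0.17, -0.44 and -0.56 in the dormant arrays and 3.28, 3.03, 2.11 and 1.47 in the activated arrays. It lay below the array median on every dormant array and above it on every activated array, and the activated arrays differed by more than 1 log2 unit among themselves. The rise was 2.86 (SE 0.35, adjusted p = 2.98e-05), or 7.27-fold. Il5, its neighbour in the type 2 locus and the growth factor of eosinophils, had -2.19, -1.99 and -2.03 in the dormant arrays and 1.12, 1.27, -0.08 and -0.35 in the activated arrays, a rise of 2.56 (SE 0.34, adjusted p = 5.82e-05). Activated arrays 1 and 2 were the higher pair for both genes. Il4, of the same locus, had -1.0, -0.85 and -1.08 in the dormant arrays and -0.64, -0.49, -0.45 and -0.68 in the activated arrays, dim on every array, and its difference of 0.41 (SE 0.084) was under the minimum of 1.

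Interferon gamma, the type 1 cytokine, rose in the same arrays. Ifng had levels of 4.22, 3.98 and 4.08 in the dormant arrays and 7.0, 7.11, 7.07 and 7.01 in the activated arrays. The rise was 2.95 (SE 0.053, adjusted p = 2.94e-11) with little spread. In deposited values Ifng averaged 14.085 when activated, near the highest values on those arrays, 14.32 to 14.37. Whether the upper limit of the array narrowed the spread or the rise was not tested. Tnf rose by 1.8 (SE 0.049, adjusted p = 5.41e-10), from dormant levels of 4.57, 4.35 and 4.49 to 6.27, 6.23, 6.29 and 6.29. Il10, the cytokine that limits inflammation, had 0.01, 0.07 and 0.33 in the dormant arrays and 4.19, 4.62, 3.64 and 3.24 in the activated arrays, a rise of 3.79 (SE 0.26), and Il24, its relative, had -1.18, -1.4 and -1.3 in the dormant arrays and 3.22, 3.29, 1.77 and 1.41 in the activated arrays. For both of these genes activated arrays 1 and 2 were again the higher pair.

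The growth factors for other leukocytes and for the T cell itself were in this group. Csf2, which encodes GM-CSF, had levels of 2.43, 2.22 and 2.28 in the dormant arrays and 4.66, 4.71, 4.54 and 4.86 in the activated arrays, and Il2, the T cell growth factor, had -1.73, -1.81 and -1.84 in the dormant arrays and 0.62, 0.94, 0.22 and 0.42 in the activated arrays, so that Il2 only just cleared the array median. Inhba rose by 5.36 (SE 0.10, adjusted p = 4.98e-11) and Penk, the enkephalin precursor, by 2.02 (SE 0.031) from a bright dormant level of 5.17. Lta rose by 2.01 (SE 0.07) and Hbegf, an EGF receptor ligand, by 1.54 (SE 0.075). Ltb, the membrane partner of lymphotoxin alpha, fell by 1.83 (SE 0.092), and Il18 fell by 2.0 (SE 0.17). Flt3l was at -1.03 on centred values and -0.66 with cyclic loess.

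Chemokine ligands gave 8 rises and 1 fall among 23 measured (8 and 0 under all 4 scalings), with a median difference of 0.75. Beside Xcl1 and Ccl1 were Ccl3 and Ccl4, which attract monocytes and T cells. Ccl3 had levels of 1.48, 1.27 and 1.92 in the dormant arrays and 7.12, 7.15, 7.17 and 7.12 in the activated arrays, and Ccl4 had 1.43, 1.84 and 1.36 in the dormant arrays and 6.05, 6.12, 6.07 and 6.12 in the activated arrays, with differences of 5.58 (SE 0.12, adjusted p = 8.75e-11) and 4.55 (SE 0.096, adjusted p = 9.99e-11). The activated arrays agreed to within 0.1 for both, while the dormant arrays spread more. Activated Ccl3 averaged 14.18 in deposited values, like Ifng near the highest values on those arrays. Ccl9 rose by 3.23 (SE 0.23), Cxcl3, a neutrophil attractant, by 1.67 (SE 0.097), Ccl5 by 1.49 (SE 0.13) and Cxcl10, a CXCR3 ligand, by 1.38 (SE 0.13). Ccl6 fell on centred values, with levels of 0.45, 1.06 and 1.55 in the dormant arrays and 0.03, 0.57, -0.67 and -0.6 in the activated arrays, which overlap between the states.

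Of 14 TNF superfamily ligands, 5 rose and 3 fell (5 and 2 under all 4 scalings). Tnfsf4, the OX40 ligand, had levels of -0.58, -0.24 and 0.21 in the dormant arrays and 2.83, 2.9, 3.14 and 3.2 in the activated arrays. Tnfsf11, the osteoclast factor RANKL, had 2.72, 2.76 and 2.77 in the dormant arrays and 5.46, 5.64, 5.49 and 5.63 in the activated arrays. Tnfsf14, also called LIGHT, rose by 2.5 (SE 0.08). In the other direction, Tnfsf10, the death ligand TRAIL, fell by 2.69 (SE 0.15) and Tnfsf13b, the B cell factor BAFF, by 1.29 (SE 0.06), the latter not under every scaling.

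Among 16 TNF receptors 3 rose and 1 fell (3 and 0 under all 4 scalings). Tnfrsf9, the costimulator 4-1BB, had levels of 0.28, 0.31 and 0.43 in the dormant arrays and 4.8, 4.73, 4.73 and 4.97 in the activated arrays, a 22.1-fold rise. Fas, the death receptor, rose by 2.13 (SE 0.12), and Tnfrsf8, which is CD30, by 2.11 (SE 0.11). Tnfrsf18, which is GITR, was at -1.11 on centred values and -0.69 with cyclic loess.

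Costimulatory and inhibitory receptors went both ways, 6 up and 4 down of 28 (6 and 1 under all 4 scalings). Slamf1, Slamf7 and Pdcd1lg2, the second ligand of PD-1, rose by 3.02 (SE 0.16), 2.67 (SE 0.10) and 2.78 (SE 0.14). Lag3, an inhibitory receptor for MHC class II, had levels of -0.33, -0.18 and -0.35 in the dormant arrays and 1.2, 1.14, 1.61 and 1.03 in the activated arrays. Cd160 went from -1.63, -1.66 and -1.81 when dormant to 0.72, 0.83, 0.99 and -0.29 when activated, with the last activated array below the array median. The fall that held under all 4 scalings was Cd96, a receptor for CD155, with 5.34, 5.05 and 5.11 in the dormant arrays and 2.3, 2.18, 2.65 and 2.7 in the activated arrays. Cd226, the activating receptor of the same ligand, was at -1.13 centred and -0.71 with cyclic loess, Cd28 at -1.27 and -0.8, and Icos at -1.09 and -0.72. Ctla4, at -0.87 (SE 0.21), did not pass the minimum.

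The receptor machinery itself went down more often than up. Of 41 genes of the T cell receptor complex and its proximal signalling, 3 rose and 13 fell on centred values, and 3 rose and 6 fell under all 4 scalings, with a median difference of -0.63 centred and -0.25 with cyclic loess. On centred values the median of all probe sets was -0.398 at deposited values of 9 to 10 and -0.586 above 12. The falls that held were Skap1, an adaptor for integrin activation (-2.52, SE 0.063), Rasgrp2 (-2.2, SE 0.092), Grap2, the adaptor Gads (-2.09, SE 0.047), Prkcq, the protein kinase C of the synapse (-2.04, SE 0.096), Rasgrp1, which activates Ras (-2.03, SE 0.061), and Pag1, which anchors Csk (-1.62, SE 0.062). Rasgrp1 had levels of 6.4, 6.27 and 6.37 in the dormant arrays and 4.25, 4.3, 4.48 and 4.22 in the activated arrays. Cd3g had 6.65, 6.59 and 6.64 in the dormant arrays and 5.18, 5.25, 5.33 and 5.21 in the activated arrays, a fall of 1.38 that was -0.89 with cyclic loess and so was not called there.

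The 3 rises in that list were Ubash3b, a phosphatase that dampens the receptor (2.11, SE 0.062), Dgkz, which removes diacylglycerol (1.25, SE 0.15), and Cd8a (1.2, SE 0.08). Cd8a had levels of 4.41, 4.68 and 4.68 in the dormant arrays and 5.84, 5.82, 5.89 and 5.6 in the activated arrays, all activated above all dormant, while its partner Cd8b1 differed by 0.13 (SE 0.063) and was not called.

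Among 33 homing receptors, 2 rose and 9 fell (2 and 7 under all 4 scalings), with a median difference of -0.44 centred and -0.19 with cyclic loess. Ccr2, the receptor for inflammatory monocyte chemokines, had levels of 5.02, 5.0 and 4.95 in the dormant arrays and 1.46, 1.32, 1.54 and 1.76 in the activated arrays, an 11.1-fold fall. Itgb7, the gut-homing integrin chain, had 4.3, 4.49 and 4.51 in the dormant arrays and 1.47, 1.66, 1.59 and 0.93 in the activated arrays. Cxcr4 (-2.43, SE 0.17), Cxcr3 (-2.1, SE 0.12), S1pr4 (-1.75, SE 0.089), Selplg, the P-selectin ligand (-1.71, SE 0.076), and Cxcr6 (-1.56, SE 0.087) fell as well. The rises were Cd44, the hyaluronan receptor (1.24, SE 0.071), and Ptger2, a prostaglandin E2 receptor (1.09, SE 0.073).

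Receptors for cytokines gave 2 rises and 6 falls of 36 (2 and 5 under all 4 scalings). The rises were 5.56% of the list, against 2.29% of all probe sets. The falls were 16.67%, near the 15.38% among all probe sets above the array median when dormant, where 30 of the 36 stood. Ifngr1, an interferon gamma receptor chain, had levels of 5.72, 5.7 and 5.69 in the dormant arrays and 3.51, 3.4, 3.5 and 3.34 in the activated arrays. Il18r1 had 5.16, 5.23 and 5.35 in the dormant arrays and 2.82, 2.7, 3.13 and 3.29 in the activated arrays, and Il7r, the survival receptor of resting T cells, had 5.19, 5.36 and 5.34 in the dormant arrays and 3.57, 3.51, 3.43 and 3.12 in the activated arrays. The states did not overlap for these 3 genes, with falls of 2.27, 2.26 and 1.89. Il12rb2, the signalling chain for interleukin 12, rose by 1.39 (SE 0.14), and Il21r by 1.23 (SE 0.079).

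Of the regulators of the type 1 and type 2 fates, Tbx21 and Gata3 were not called. Tbx21, which encodes T-bet, had levels of 3.9, 4.18 and 4.17 in the dormant arrays and 4.01, 4.04, 4.18 and 4.11 in the activated arrays and a difference of 0.0 (SE 0.073), and Gata3 had 3.42, 3.42 and 3.39 in the dormant arrays and 2.49, 2.68, 2.74 and 2.7 in the activated arrays and a difference of -0.76 (SE 0.067), under the minimum. Of 18 type 2 regulators and receptors, 0 rose and 2 fell (0 and 1 under all 4 scalings), namely Hpgds, described above, and Rora at -1.14. Of 15 type 1 genes, 1 rose and 4 fell (1 and 4 under all 4 scalings), or 6.67% and 26.67% against 2.29% and 8.05% of all probe sets. Of these 15, 12 were above the array median when dormant, where 15.38% of all probe sets fell. The falls were Ifngr1, Il18r1, Cxcr3 and Irf1, the interferon-induced factor, whose levels went from 3.56, 3.58 and 3.68 when dormant to 1.37, 1.45, 1.58 and 1.15 when activated.

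Cytotoxic genes went both ways. Of 29 effectors and serpins 9 rose and 5 fell (9 and 2 under all 4 scalings). The serpins that protect a killer cell from its own granzymes rose most: Serpinb9, the granzyme B inhibitor, had levels of 0.36, 0.08 and 0.05 in the dormant arrays and 5.01, 4.99, 5.04 and 5.05 in the activated arrays, and Serpinb6b had 1.58, 1.77 and 1.46 in the dormant arrays and 5.92, 5.82, 5.98 and 5.81 in the activated arrays. Gzmb, the main apoptosis-inducing granzyme, was bright from the start, with 5.45, 5.77 and 5.62 in the dormant arrays and 6.83, 6.92, 6.87 and 6.9 in the activated arrays, and rose by 1.27 (SE 0.06). The granzymes of the same cluster rose with it, Gzmg by 2.25 (SE 0.16), Gzme by 1.8 (SE 0.083) and Gzmc by 1.56 (SE 0.31). Gzmk, of another cluster, fell by 1.92 (SE 0.054), with 6.64, 6.66 and 6.67 in the dormant arrays and 4.73, 4.84, 4.79 and 4.58 in the activated arrays. Prf1, the pore protein, had 4.78, 5.07 and 4.97 in the dormant arrays and 5.93, 5.78, 5.85 and 5.96 in the activated arrays, and its difference of 0.94 (SE 0.066) was just short of the minimum.

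These granzyme genes are near copies of each other, and probe sets of such families can share signal. Ctsc, the protease that activates granzymes, fell by 1.78 (SE 0.15). Crtam and Stx11, the latter part of the granule release machinery, rose by 2.19 (SE 0.085) and 1.95 (SE 0.13).

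On centred values 0 of 26 NK receptors rose, where 2.29% of all probe sets did, and 6 fell (4 under all 4 scalings). The falls were 23.08% of the list, against 8.05% of all probe sets. With the deposited values 2 rose and 4 fell. Klrb1f had levels of 3.54, 3.71 and 3.53 in the dormant arrays and -0.62, -0.5, 0 and -0.65 in the activated arrays, and Klrd1, the CD94 chain, had 6.3, 6.26 and 6.29 in the dormant arrays and 3.42, 3.24, 3.75 and 3.66 in the activated arrays. Lilr4b, an inhibitory receptor, fell by 2.0 (SE 0.13).

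Genes of quiescence and memory fell in the highest share of the 29 lists. Of 36 measured, 0 rose and 18 fell on centred values, and 10 fell under all 4 scalings. The median difference was -0.96 centred and -0.65 with cyclic loess. Ypel3, a growth suppressor, had levels of 3.64, 3.56 and 3.65 in the dormant arrays and 1.08, 1.02, 1.3 and 0.95 in the activated arrays. Id3, an inhibitor of E proteins kept high in memory precursors, had 2.94, 1.61 and 2.69 in the dormant arrays and -0.07, -0.02, -0.27 and -0.1 in the activated arrays, with the second dormant array lower than its fellows. Cdkn1b, the p27 cell cycle inhibitor, had 4.63, 4.82 and 4.78 in the dormant arrays and 2.55, 2.54, 2.74 and 2.69 in the activated arrays, and Pdcd4, a brake on translation, had 5.5, 5.58 and 5.52 in the dormant arrays and 3.49, 3.4, 3.69 and 3.12 in the activated arrays. Each of these fell by more than 2 log2 units, namely 2.53, 2.53, 2.11 and 2.11. Txnip (-1.89, SE 0.057), Sesn1 (-1.94, SE 0.14), Lef1 (-1.85, SE 0.059) and Bcl2 (-1.76, SE 0.079) also fell under all 4 scalings.

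Survival genes went both ways. Of 26 BCL2 family and death genes 4 rose and 6 fell (4 and 2 under all 4 scalings). Bcl2 fell from 4.97, 4.92 and 4.86 when dormant to 3.25, 3.28, 3.17 and 2.93 when activated, whereas Bcl2l1, which encodes the related BCL-XL, rose from 1.54, 1.37 and 1.51 when dormant to 2.84, 2.84, 2.96 and 3.25 when activated. Gadd45b, a stress kinase activator, had 1.25, 1.33 and 1.38 in the dormant arrays and 4.41, 4.28, 4.33 and 4.52 in the activated arrays, and Trp53inp1, a p53 target, had 4.92, 4.85 and 4.89 in the dormant arrays and 2.48, 2.39, 2.77 and 2.23 in the activated arrays.

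Interferon-stimulated genes had the second highest share of falls. Of 50 measured, 3 rose and 21 fell (3 and 15 under all 4 scalings), with a median difference of -0.74 centred and -0.66 with cyclic loess. The Ifi200 cluster led, with Ifi209 at -2.92 (SE 0.16), Ifi213 at -2.85 (SE 0.19), Ifi203 at -2.69 (SE 0.082) and Ifi208 at -2.24 (SE 0.094) after Ifi206. Genes of this cluster are close copies, so their probe sets may share signal. The guanylate-binding proteins Gbp4 and Gbp7 fell by 2.66 and 2.37, and Psmb9, an immunoproteasome subunit, had levels of 4.48, 4.6 and 4.6 in the dormant arrays and 2.39, 2.36, 2.46 and 2.22 in the activated arrays. Xaf1 (-2.36, SE 0.079), Trim30a (-2.18, SE 0.12) and Mx1 (-1.51, SE 0.13) fell too. The 3 that rose were Gbp3 (1.38, SE 0.18), Ifih1, the RNA sensor MDA5 (1.31, SE 0.11), and Ifi27l2a (1.07, SE 0.16).

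The promoter of Ifi206, the largest fall in the clone, is printed for its match to the interferon response element. It lies at chr1:173491269-173491568 (RefSeq start, GRCm38.p6, minus strand, 5′ to 3′ on the gene's strand), with the match to GAAA, 2 free bases and GAAA, searched on both strands, in capitals:
Ifi206: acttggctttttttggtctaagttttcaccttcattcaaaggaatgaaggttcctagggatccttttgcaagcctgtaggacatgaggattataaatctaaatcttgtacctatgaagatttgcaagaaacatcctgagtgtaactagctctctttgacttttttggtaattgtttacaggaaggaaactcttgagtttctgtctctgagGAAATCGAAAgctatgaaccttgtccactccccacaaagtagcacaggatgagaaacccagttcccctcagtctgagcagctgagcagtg
Such a match was present in 12 of 23 promoters of list members that fell, in 26 of 47 promoters of the whole list and in 3.44% of all promoters.

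Of the metabolic lists, ribosome biogenesis rose in 11.1%, glycolysis and the ATF4 and one-carbon group in 14.3% each, and cholesterol and fatty acid synthesis in 18.2% of members on centred values, against 2.29% of all probe sets. Of 54 ribosome biogenesis genes, 6 rose and 0 fell on centred values, and 24 rose with cyclic loess, with medians of 0.57 and 0.97. Pno1, an assembly factor of the small subunit, had levels of 2.45, 2.32 and 2.24 in the dormant arrays and 4.05, 4.02, 3.97 and 3.96 in the activated arrays, and Nop16 rose by 1.55 (SE 0.078), Rrp9 by 1.42 (SE 0.057) and Utp20 by 1.27 (SE 0.058). Of 21 glycolysis genes, 3 rose centred and 7 with cyclic loess, 0 falling in either. Slc16a3, the lactate exporter, had 2.08, 2.47 and 2.89 in the dormant arrays and 4.23, 4.2, 4.23 and 4.01 in the activated arrays, and Tpi1 rose by 1.23 (SE 0.096). Pgam1 rose by 1.08 (SE 0.098) and was at 0.93 without the first dormant array, where it was not called. Of 35 genes of the ATF4 and one-carbon group, 5 rose and 1 fell (5 and 0 under all 4 scalings), with Shmt1 at 1.44 (SE 0.15), Mthfd1 at 1.33 (SE 0.078), Shmt2 at 1.25 (SE 0.068) and Psat1, of serine synthesis, at 1.07 (SE 0.071).

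Of 33 genes of cholesterol and fatty acid synthesis, 6 rose and 2 fell (6 and 2 under all 4 scalings). Those that rose make sterols or fatty acids, namely Fads2 (2.09, SE 0.13), Idi1 (1.92, SE 0.11), Hsd17b7 (1.86, SE 0.06), Cyp51 (1.8, SE 0.10), Fasn (1.55, SE 0.053) and Fdps (1.23, SE 0.14). The falls were Abcg1, which exports cholesterol (-1.71, SE 0.073), and Acss2 (-1.43, SE 0.10). Hypoxia genes gave 2 rises and 3 falls of 23 (2 and 1 under all 4 scalings). The unfolded protein response (0 up, 1 down of 31), the respiratory chain (0 up, 1 down of 45) and the proteasome (1 up, 0 down of 31) had no call that held under all 4 scalings except the rise of Psmd3 at 1.22 (SE 0.065). In the prostaglandin and redox list of 28, 3 rose and 2 fell (3 and 1 under all 4 scalings), and Srxn1, an antioxidant enzyme, rose by 2.0 (SE 0.071).

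**Figure D3:**
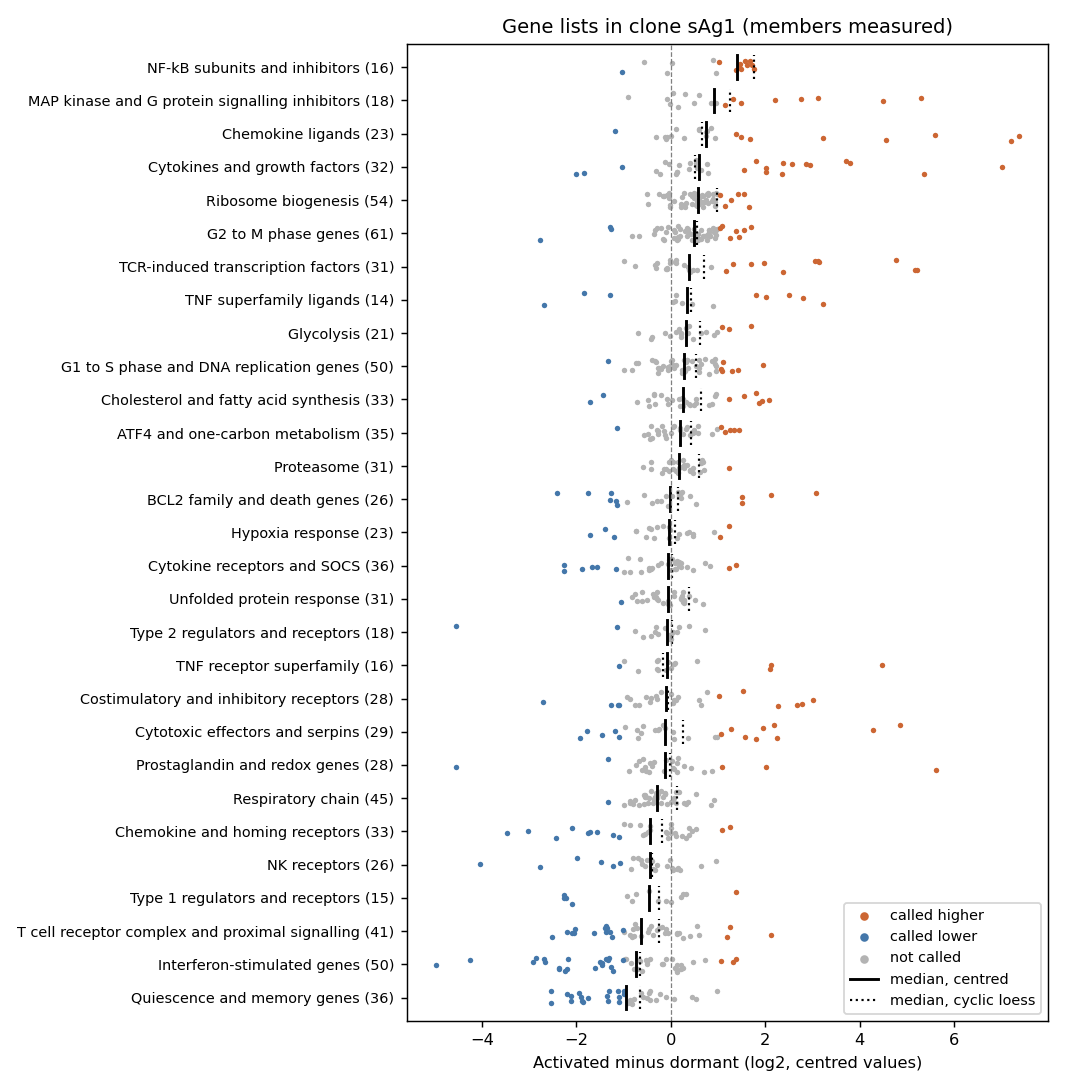
Activated minus dormant difference (log2, centred values) of each measured member of 29 gene lists in clone sAg1, with the number measured after each name; orange members rose, blue members fell and grey members were not called. Solid bars are list medians on centred values, from 1.41 for NF-kB genes to -0.96 for quiescence genes, and dotted bars the medians with cyclic loess, most of which lie to the right.

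Cell cycle genes rose in a larger share than the 2.29% of all probe sets, though most were not called. Of 61 genes of the G2 and M phases 7 rose and 3 fell (7 and 1 under all 4 scalings), and of 50 genes of the G1 to S transition 6 rose and 1 fell (6 and 0). The rises were 11.5% and 12% of these lists on centred values, and 26 and 16 genes with the deposited values. The list median of the G2 and M genes was 0.32, 0.24 and 0.78 on the dormant arrays and 1.11, 0.93, 0.73 and 0.12 on the activated arrays. The states overlapped, since the last dormant array was high and the last activated array was the lowest of all 7. Without that activated array 19 of the G2 and M genes rose, and without the last dormant array 18 did. Leaving out 1 of the other arrays at a time gave 4 to 6. For the G1 to S genes the same counts were 11 and 10, and 3 to 7 without 1 of the others. Ccna2, cyclin A, was called on all 7 arrays together and lost its call when any 1 array but the last dormant or the last activated one was left out. Bub1, a spindle checkpoint kinase, had levels of -1.81, -1.72 and -0.15 in the dormant arrays and 1.08, 0.91, 0.52 and -0.64 in the activated arrays, and Ccna2 had -0.4, -0.39 and 0.84 in the dormant arrays and 1.9, 1.75, 1.38 and 0.06 in the activated arrays. Uhrf1, a DNA methylation maintenance factor, rose from -0.29, -0.43 and -0.06 when dormant to 1.87, 2.11, 1.72 and 1.04 when activated, and Mcm5, of the replicative helicase, by 1.42 (SE 0.14). Prc1 fell by 2.77 (SE 0.26), and Mki67, the proliferation marker, had 3.49, 3.3 and 3.54 in the dormant arrays and 3.06, 3.05, 2.65 and 1.74 in the activated arrays, a difference of -0.82 (SE 0.26) that was not called.

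The cell cycle response of sAg1 differed from that of the other clones. The activation change of sAg1 minus the mean change of the other 4 clones was called higher for 49 and lower for 0 of the 61 G2 and M genes (2.1% and 1.23% of all probe sets), and for 18 and 0 of the 50 G1 to S genes. With the 2 dormant 8uvmo-2 arrays whose cell cycle genes stood high left out, the counts were 48 and 14, again with 0 lower. Against sAg3 alone 37 of the 61 were higher and 1 lower (3.09% and 2.49% of all probe sets). Ccna2 differed by 1.26 (SE 0.42, adjusted p = 0.022) between the states of sAg1 and by -1.23, -2.73, -1.9 and -2.54 in sAg3, 8uvmo-2, 8uvmo-3 and CD8bm1, so that sAg1 stood 3.35 (SE 0.60, adjusted p = 6.17e-05) above their mean. Its dormant levels averaged 0.02 in sAg1 and 2.35, 4.22, 2.95 and 4.63 in the others. The activated levels averaged 1.27 in sAg1 and 1.13, 1.5, 1.05 and 2.1 in the others.

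**Figure D4:**
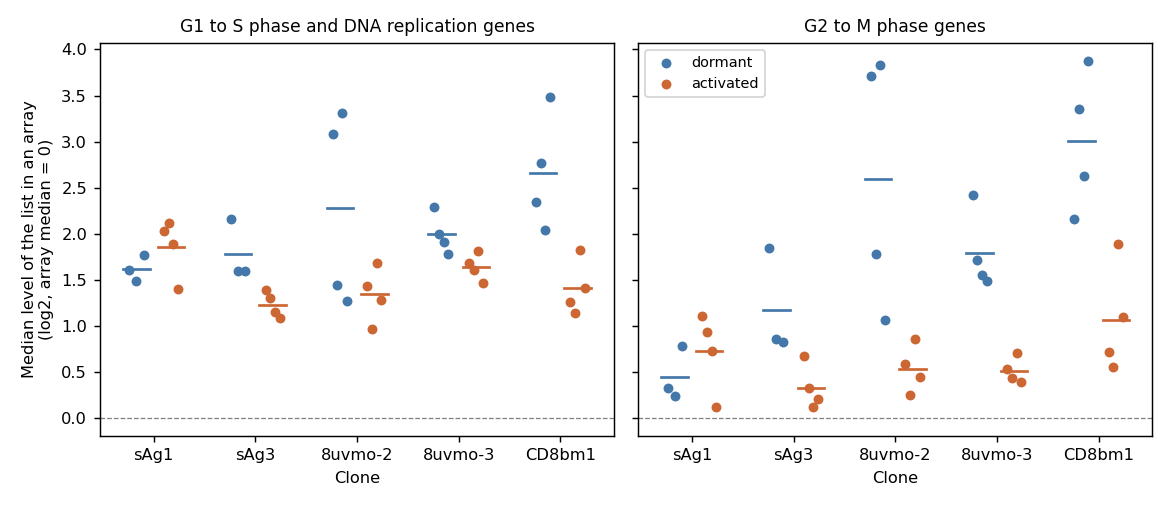
Median level of 2 cell cycle gene lists on each array (log2, array median at 0) for the 5 clones, dormant in blue and activated in orange, with bars at the group means. In the G2 and M list the dormant sAg1 arrays lie at 0.24 to 0.78 and overlap the activated sAg1 arrays, whereas the dormant arrays of the other clones lie at 0.82 to 3.88.

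The promoter of Hmmr, a spindle protein that rose by 1.55 (SE 0.43) and was chosen after its values were seen, is printed for its match to the cell cycle homology region. It lies at chr11:40733388-40733687 (RefSeq start, GRCm38.p6, minus strand, 5′ to 3′ on the gene's strand), with the match to TTTGAA, the core of that element, in capitals:
Hmmr: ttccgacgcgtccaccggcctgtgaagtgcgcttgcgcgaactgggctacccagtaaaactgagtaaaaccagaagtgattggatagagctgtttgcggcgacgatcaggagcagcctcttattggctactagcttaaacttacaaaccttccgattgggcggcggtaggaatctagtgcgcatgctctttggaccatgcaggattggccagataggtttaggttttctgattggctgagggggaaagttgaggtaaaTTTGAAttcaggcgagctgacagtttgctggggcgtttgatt
On both strands TTTGAA was found in 70.18% of 57 promoters of the G2 and M list and in 17.89% of all promoters, and CCAAT in 75.44% and 37.41%. Of 6 promoters of the list members that rose in sAg1, 2 held TTTGAA and 2 held CCAAT, or 33.33% for each.

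Probe sets named for microRNA genes formed a further group, picked out after their values were seen. Of 298 such genes, 27 fell and 3 rose (20 and 2 under all 4 scalings). The share that fell, 9.06%, was near the 8.05% of all probe sets. The arrays were made from total RNA and a probe set can read a hairpin or a longer transcript that holds it, so these values are not amounts of the mature microRNA. Other probe sets carry a microRNA symbol together with another symbol. Of these, 5 picked by name were called and are left unnamed, and the rest were not counted.

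Several of the genes that fell share a seed, bases 2 to 8 of the mature microRNA, which decides its targets. Genes with the same seed that did not fall were not counted, so no family is described as a whole. RefSeq mature sequences of genes that were called follow, 5′ to 3′ with the seed in capitals. The first 2 share the miR-29 seed, the next 3 the seed of miR-15 and miR-16, and the 4 after those the let-7 seed. The last 2 are from 2 of the 3 genes that rose, both known from NF-kB or CREB induced loci:
miR-29a-3p: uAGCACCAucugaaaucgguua
miR-29b-3p: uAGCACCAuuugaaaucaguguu
miR-15a-5p: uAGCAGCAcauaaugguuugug
miR-16-5p: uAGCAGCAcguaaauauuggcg
miR-15b-5p: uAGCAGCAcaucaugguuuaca
let-7c-5p: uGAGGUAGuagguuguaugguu
let-7f-5p: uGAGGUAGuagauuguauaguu
let-7d-5p: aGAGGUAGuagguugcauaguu
let-7i-5p: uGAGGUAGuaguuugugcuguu
miR-146a-5p: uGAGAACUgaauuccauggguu
miR-132-3p: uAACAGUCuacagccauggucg

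Mir29a, whose products repress Ifng and Tbx21, had levels of 0.25, 0.1 and 0.36 in the dormant arrays and -3.18, -2.52, -2.92 and -3.2 in the activated arrays, a difference of -3.19 (SE 0.15, adjusted p = 1.20e-08). Its neighbour Mir29b-1 had -2.37, -2.74 and -2.9 in the dormant arrays and -4.28, -4.44, -4.35 and -4.32 in the activated arrays, dim throughout. Mir15a (-2.59, SE 0.089), Mir16-1 (-1.89, SE 0.16) and Mir15b (-2.37, SE 0.13), of the family that represses cyclins and Bcl2, fell as well. In the let-7 family the differences were -2.85 (SE 0.16) for Mirlet7c-1, -2.52 (SE 0.099) for Mirlet7f-1, -1.83 (SE 0.12) for Mirlet7d and -1.22 (SE 0.086) for Mirlet7i. Mir99a, which lies beside Mirlet7c-1, had 1.5, 1.35 and 1.85 in the dormant arrays and -1.59, -1.52, -1.57 and -1.14 in the activated arrays, and Mir142, of blood cells, had 4.32, 4.07 and 4.14 in the dormant arrays and 1.63, 2.03, 2.16 and 2.69 in the activated arrays. Mir146 rose from -1.73, -1.47 and -0.77 when dormant to -0.72, -0.28, -0.04 and 0.62 when activated, with the lowest activated array just above the highest dormant one. Mir132 rose by 1.11 (SE 0.083) and was not called with cyclic loess, at 0.99. The other rise, Mir129-2, was the largest at 1.29 (SE 0.10) and held under all 4 scalings. Mir132 and Mir129-2 were below the array median on every sAg1 array.

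For Mir29a the change in sAg1 minus the mean change of the other 4 clones was -2.77 (SE 0.26, adjusted p = 7.40e-10), and the other clones' own differences were -0.23, -0.59, -0.72 and -0.17 in sAg3, 8uvmo-2, 8uvmo-3 and CD8bm1. Dormant sAg1 was the highest of the dormant groups for this gene. Mir29a averaged 0.24 in dormant sAg1 against -1.59, -1.95, -1.46 and -2.11 in the other dormant groups, and -2.96 in activated sAg1 against -1.82, -2.54, -2.19 and -2.27. Mir15a had 2.54 in dormant sAg1 and -0.32, 0.23, -0.17 and -0.66 in the others. The dormant sAg1 arrays were also the ones with high levels of unnamed rows, of which 2125 fell on activation and 183 rose (17.495% and 1.507%). Of 34 taste receptor genes, likewise picked out after their values were seen, 3 on chromosome 6 fell, a share near the 8.05% of all probe sets: Tas2r143 (-3.05, SE 0.088), Tas2r135 (-3.01, SE 0.20) and Tas2r126 (-2.11, SE 0.13), and 0 rose. Whether these share a cause was not tested.

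Some markers of macrophages and dendritic cells were among the falls. Lyz2, the lysozyme of myeloid cells, had levels of 2.12, 2.44 and 3.32 in the dormant arrays and -0.68, 0.06, -1.53 and -1.37 in the activated arrays, a difference of -3.51 (SE 0.37, adjusted p = 7.91e-06), while the other clones averaged -1.38, -0.64, -1.73 and -1.29 when dormant. Of the 41 markers 1 rose and 7 fell on centred values, and 1 and 1 under all 4 scalings. Beside Lyz2 and Cybb, the falls were Tlr4 (-1.37), Clec4n (-1.18), Cd68 (-1.17), Ctsd (-1.09) and Itgam (-1.06). The mean level of the list ranged from -0.23 to 0.12 on dormant arrays and from -0.49 to -0.23 on activated arrays. On the dormant arrays of the other clones it was lower, between -0.80 and -0.39. The defining markers stayed dim in both states: Adgre1 had -1.77, -1.79 and -1.42 in the dormant arrays and -1.89, -1.8, -1.84 and -1.73 in the activated arrays, Csf1r had -0.72, -0.64 and -0.51 in the dormant arrays and -0.51, -0.63, -0.53 and -0.61 in the activated arrays, and C1qa had -0.99, -0.89 and -0.86 in the dormant arrays and -0.89, -0.75, -0.77 and -0.84 in the activated arrays. Among the rest, Cybb had 0.11, -0.23 and 1.08 when dormant and -0.63, 0, -1.42 and -1.31 when activated, and Mmp12 0.3, 1.54 and 2.21 and 0.93, 1.4, -1.09 and -1.21, so that the third dormant array was the highest for Lyz2, Cybb and Mmp12. Without that array 4 markers fell, and without the first dormant array 10. The part of such cells in the fall of Lyz2 was not tested. Cd74, the invariant chain, rose from -0.36, -0.41 and 0.22 when dormant to 1.93, 1.74, 1.88 and 2.55 when activated. In the mast cell list Cpa3 fell from 1.02, 1.27 and 1.21 when dormant to -1.85, -1.81, -1.18 and -0.83 when activated and Siglecf rose from -0.4, -0.33 and -0.39 when dormant to 1.36, 1.18, 1.23 and 1.26 when activated, while Elane stayed dim at -1.19, -1.34 and -1.05 and -0.99, -0.79, -0.82 and -0.84.

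The response of sAg1 was then compared with that of sAg3, the other CD8IL13+ clone, as a difference of differences over the 14 arrays of both clones. It was called for 1308 probe sets (5.59%), 724 with a higher change in sAg1 (3.09%) and 584 with a lower one (2.49%). Olr1 differed most, rising by 6.81 in sAg1 against a difference of 1.08 in sAg3, a gap of 5.73 (SE 0.16, adjusted p = 3.95e-13). Tnfrsf9 followed with a gap of 4.84 (SE 0.081, adjusted p = 2.15e-16), where sAg3 was already bright when dormant, averaging 6.14 and then 5.77. Tm4sf19 (4.73), Akr1c18 (4.71), Inhba (4.55) and Ccl1 (4.43) made up the 6 largest. The NF-kB list had 12 of 16 members with a higher change in sAg1 and 0 lower, and the list of MAP kinase and G protein inhibitors 6 of 18 and 0. Against the mean of the other 4 clones these counts were 2 and 0, and 4 and 1 (2.1% and 1.23% of all probe sets). The median difference of the NF-kB list was 1.41 in sAg1. It was -0.06, 0.23, 0.89 and 0.63 in sAg3, 8uvmo-2, 8uvmo-3 and CD8bm1.

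In the lower direction the largest gaps were Cd36, a fatty acid receptor, at -4.2 (SE 0.35, adjusted p = 8.72e-08), Lyz2 at -4.16, Nebl at -4.09, Olfm3 at -4.09, Hpgds at -3.44 and Tas2r143 at -3.3. Cd36 differed by -1.28 in sAg1 and 2.92 in sAg3. Olfm3 differed by -0.19 in sAg1 (0.22 with the deposited values) and by 3.9 in sAg3.

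The changes of Il13 and Il5 were not called as different between the 2 CD8IL13+ clones. For Il13 the changes were 2.86 and 2.07, with a gap of 0.79 (SE 0.40, adjusted p = 0.17), and for Il5 they were 2.56 and 1.9, with a gap of 0.66 (SE 0.39, adjusted p = 0.25). This does not show that the changes were alike, since the standard errors were large. The dormant levels were apart: sAg3 averaged 3.62 for Il13 and 4.22 for Il5, against -0.39 and -2.07 in dormant sAg1. Ifng (1.74, SE 0.09, adjusted p = 3.30e-10), Tnf (1.81, SE 0.078, adjusted p = 4.33e-11), Il2 (1.32, SE 0.19, adjusted p = 4.62e-05), Csf2 (1.97, SE 0.17, adjusted p = 1.33e-07) and Il10 (2.46, SE 0.30, adjusted p = 7.24e-06) each had a higher change in sAg1 than in sAg3.

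Against the mean of the other 4 clones, over all 38 arrays, the change in sAg1 was called for 779 probe sets (3.33%), 491 higher and 288 lower. These comparisons share the sAg1 arrays with those above. Il13 stood 2.02 (SE 0.24, adjusted p = 6.00e-08) above the mean of the others, whose own differences were 2.07, 1.2, 0.09 and -0.01 in sAg3, 8uvmo-2, 8uvmo-3 and CD8bm1. Il5 stood 1.73 (SE 0.24, adjusted p = 1.41e-06) above, with 1.9, 0.47, 0.5 and 0.47. The 6 largest in this direction were Tm4sf19 (4.55), Il3 (4.03), Slamf7 (3.64), Olr1 (3.54), H2ac4, a replication-dependent histone (3.44), and Ccna2. Il3 varied among the others, at 2.95, 6.96, 1.88 and 0.1, so that 8uvmo-2 was near the 7.0 of sAg1. Tm4sf19 was at 6.0 in sAg1 and 1.27, 1.5, 0.55 and 2.48 elsewhere. Slamf7 rose in sAg1 from a dormant mean of 1.7, while the other clones had 5.41, 5.49, 4.97 and 5.16 when dormant and 4.18, 4.83, 4.65 and 3.48 when activated; its activated mean in sAg1 was 4.37.

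The 6 largest in the lower direction were Lyz2 (-3.52), Tmem273 (-3.32), Hpgds (-3.27), Tas2r143 (-3.05), Tas2r135 (-3.02) and Nebl (-2.85). For Hpgds the other clones' differences were -1.11, -2.19, -0.56 and -1.25, against -4.55 in sAg1, and its dormant means were 3.84 in sAg1 and 2.77, 2.0, -0.97 and 0.05 elsewhere. Cd8a was called higher, at 1.12 (SE 0.082, adjusted p = 2.14e-12), and Gzmb, at 0.98, was under the minimum. Ifng, at 0.45, and Csf2, at 0.74, were not called against the other 4. Activated Ifng averaged 7.05 in sAg1 and 6.52, 7.11, 7.11 and 6.54 in sAg3, 8uvmo-2, 8uvmo-3 and CD8bm1. Whether the upper limit of the array narrowed this gap was not tested.

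**Figure D5:**
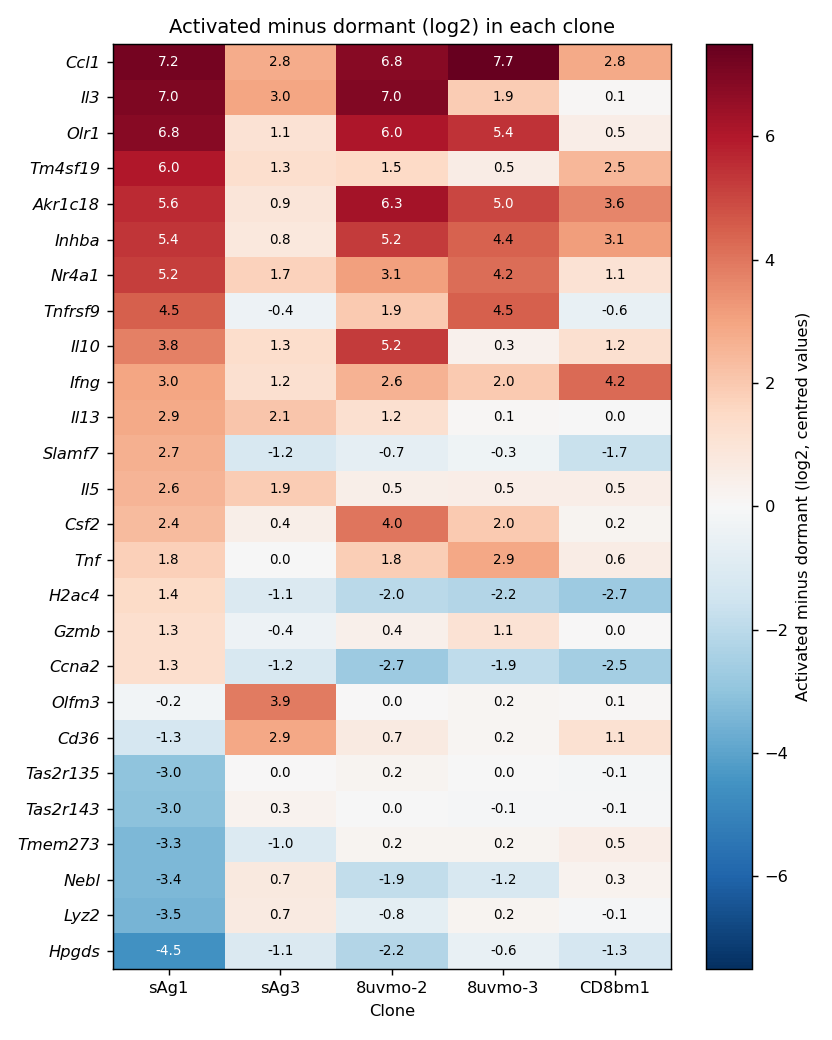
Activated minus dormant difference (log2, centred values) of 26 genes in each of the 5 clones, with red for higher and blue for lower and the value in each cell. Tm4sf19 is at 6.0 in sAg1 and at most 2.5 elsewhere, Ccl1 is at 2.8 or more in every clone, and the cell cycle genes Ccna2 and H2ac4 are above 0 in sAg1 and below 0 in the other 4.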

How the data were processed

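Expression was measured on Affymetrix mouse whole-transcript arrays, 1 array per sample. The authors deposited log2 values for 35556 probe sets on 38 arrays, and the submitters' processing notes name Partek and RMA without versions, settings or order. Whether the arrays of all clones were normalized together is not given in the sources used here, and arrays have no count depth, so their number limits the precision. Each array's log2 values were centred on its median over 23410 named probe sets (21789 with 1 symbol, 1621 with several). The change in sAg1 (3 dormant against 4 activated arrays), its difference from the change in sAg3 (14 arrays) and from the mean change of the other 4 clones (38 arrays) were tested two-sided with limma 3.58.1 in R 4.3.3 (lmFit, eBayes with trend), calling adjusted p under 0.05 and a log2 difference of at least 1.

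Genes were named by rule: 20 key genes, the 10 largest called differences per direction, up to 5 called members per list, defining markers, and the 6 largest differences per direction between clones. Other list members are given by their values. A gene with several probe sets is represented by its brightest on average. The members and the 36 lists (29 of biology, 7 of markers; 980 of 1051 symbols measured) were chosen with earlier results of these data known. Tested on simulated data with 200 genes changed by log2 1.5, 2 or 3, the fits recovered 98.5, 99 and 99.5% for sAg1, 97, 99.5 and 100% for the difference from sAg3, and 99.5, 100 and 100% for the difference from the other 4 clones. The simulated arrays had independent noise and no shift with level between the states, so these rates do not bear on the choice of scaling. Other scalings, thresholds, filters, a replicate block and arrays left out were tried. Promoters and microRNAs are from RefSeq (GRCm38.p6), and 29 of 30 called microRNA genes with 1 symbol matched its table. Probe sets without a name were used only for their levels and counts.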

Additional observations from a re-analysis of the deposited data

Results flagged for a closer look

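In 4 of 151 called genes (2.65%), 1 activated sAg1 array stood apart from the other 3, whereas chance alone would do this in about 1 in 20 groups. These were Slc16a3, at 4.01 on array 4 (the others 4.20 to 4.23), Cyp51, at 3.65 on array 3 (3.26 to 3.32), Dnajc3, at 3.98 on array 4 (4.33 to 4.36), and Lta4h, at 2.33 on array 4 (2.87 to 2.95). Dnajc3, a chaperone of the endoplasmic reticulum, was called lower and lost the call without that array, at -0.96.

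The change in sAg1 differed from that in sAg3 by a test of the difference for the genes with the largest gaps. The higher ones were Olr1 (5.73), Tnfrsf9 (4.84), Tm4sf19 (4.73), Akr1c18 (4.71), Inhba (4.55) and Ccl1 (4.43). The lower ones were Cd36 (-4.20), Lyz2 (-4.16), Nebl (-4.09), Olfm3 (-4.09), Hpgds (-3.44) and Tas2r143 (-3.30).

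Against the mean of the other 4 clones the higher ones were Tm4sf19 (4.55), Il3 (4.03), Slamf7 (3.64), Olr1 (3.54), H2ac4 (3.44) and Ccna2 (3.35). The lower ones were Lyz2 (-3.52), Tmem273 (-3.32), Hpgds (-3.27), Tas2r143 (-3.05), Tas2r135 (-3.02) and Nebl (-2.85). Within sAg1 alone H2ac4 rose by 1.43 (SE 0.51), and this call was lost without any 1 array other than the last dormant and the last activated one.

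Outside the named probe sets, 2125 of 12146 unnamed rows were called lower on activation of sAg1.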

How the results depend on the processing

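No called named gene changed sign under the alternatives run. Of the named genes that were not called, Cd4 went from -0.25 to 0.16, Eomes from -0.11 to 0.3 and Olfm3 from -0.19 to 0.22 with the deposited values, and Tbx21, at 0.0017, was between -0.09 and -0.0067 in 5 settings. The balance of rises and falls in sAg1 turned with the scaling. Against 537 higher and 1884 lower, the deposited values gave 1692 and 845, quantile normalization 867 and 1134, and cyclic loess 862 and 1208. The median difference of all probe sets was 0.375, 0.018 and 0.003 in these and -0.033 when centred. Called the same way under all 4 scalings, a rule chosen after seeing the data, were 1352, of which 842 were lower. With no minimum difference 15229 were called (6562 higher, 8667 lower), with the treat test 1411 (293 and 1118), and over all rows of the file 4727 (4009 lower). The sAg3 comparison gave 6928, 401 and 2430 under these last 3 settings, and that with the other 4 clones 5621, 118 and 1612. Leaving out 1 array at a time gave 2399 to 2482 calls in sAg1 (510 to 565 higher, 1834 to 1960 lower), 1246 to 1336 against sAg3 and 704 to 820 against the other 4 clones. Without both dormant 8uvmo-2 arrays whose cell cycle genes stood high, 756 were called, 718 of them shared.

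The labels do not tell whether equal replicate numbers in the titles pair the arrays, and no pairing was used in the main fit. Same-numbered arrays deviated from their group means with correlations of -0.053, -0.041 and 0.072. Pairs of other numbers gave -0.148 to 0.109. With 3 and 4 arrays these values cannot decide on a pairing. With the replicate block 2386 were called in sAg1 (563 higher, 1823 lower), 1325 against sAg3 and 809 against the other 4 clones. Of 151 called named genes, 16 lost the call with deposited values, 12 with quantile normalization, 13 with cyclic loess, 32 with the treat test and 1 to 5 when 1 array was left out.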
